A study of Mus musculus with 47 samples.

Results

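Mitochondrial beta-oxidation shortens fatty acids in the matrix of the mitochondrion and hands the electrons it removes to the respiratory chain. Long acyl chains enter as carnitine esters, and each turn of the spiral then uses a dehydrogenase, a hydratase, a second dehydrogenase and a thiolase. Fast fibres with few mitochondria draw mainly on glycogen and creatine phosphate, whereas oxidative fibres rely more on this route. The 10 genes described here were taken by name from 24421 counted genes. They encode the outer membrane carnitine acyltransferase (Cpt1b), the carrier of acylcarnitine (Slc25a20), the inner membrane acyltransferase (Cpt2), 3 acyl-CoA dehydrogenases (Acadvl, Acadl and Acadm), both subunits of the trifunctional protein (Hadha and Hadhb), the short-chain enoyl-CoA hydratase (Echs1) and the oxidoreductase that passes electrons from the electron transfer flavoprotein to ubiquinone (Etfdh).

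RNA was sequenced from single fibres of the extensor digitorum longus (EDL), a fast muscle of the hindlimb, to ask what the loss of fast myosin binding protein-C does to fibre transcription. There were 20 fibres from C2KO mice, which carry a constitutive deletion of Mybpc2 made by replacing most of its exons with a neomycin cassette, and 27 fibres from wild-type (WT) mice, all of the FVB/N background, 2 to 3 months old and with no further treatment. The labels give 2 C2KO and 3 WT mice but assign no fibre to a mouse, so fibres were not treated as replicates. Counts were summed into 2 C2KO pools by the prefix of the fibre name (740 and 2445, 10 fibres each) and 3 WT pools by sequencing run (10, 10 and 7 fibres). No label ties a pool to 1 mouse, so the p-values below measure the spread between these pools, which may be technical in part. All 10 fibres of C2KO pool 740 had Y-linked counts and all 10 of pool 2445 had Xist. Given the 2 C2KO mice of the labels, each C2KO pool was thus 1 mouse. The spread between the C2KO pools is therefore one between 2 animals that differ in sex-linked counts. Every WT pool held fibres with Xist and fibres with Y-linked counts, hence at least 2 of the 3 WT mice, so the WT pools share mice and their spread is not one between separate animals. Genotype and sequencing run were nearly confounded, since only 1 run held fibres of both genotypes (1 C2KO and 7 WT).

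Depth ran from 7648762 to 10517887 gene counts per C2KO fibre and from 7769593 to 14606631 per WT fibre. Mybpc2 was at 2.61 to 47.6 counts per 1000000 gene counts (CPM) in C2KO fibres and at 6563 to 11556 CPM in WT fibres, so no genotype label was contradicted. The labels give no sex, and the study describes its EDL fibre sequencing as done on male mice. However, all 10 fibres of C2KO pool 2445 and 11 WT fibres had Xist in place of Y-linked counts, whereas all 10 fibres of C2KO pool 740 and 15 WT fibres had Y-linked counts. All fibres were kept, and in C2KO this difference and the pool cannot be told apart. The remaining WT fibre, of WT pool 1, could be placed in neither kind. All 5 fibre markers (Ckm, Acta1, Myh4, Ttn and Des) were detected in both genotypes. The summed markers of fibroblasts and fibro-adipogenic cells ranged from 0.0957 to 4898 CPM in C2KO fibres and from 0.254 to 340.0 CPM in WT fibres, and 4 C2KO fibres (3 of pool 740 and 1 of pool 2445) exceeded the highest WT fibre in summed fibroblast and endothelial markers. The 8 slow or oxidative fibre markers summed to 75.7 to 203 CPM (median 128) in C2KO fibres and to 58.2 to 279 CPM (median 192) in WT fibres, with C2KO pool 2445 the lowest pool by its median. The part of these markers in the differences described here was not tested beyond leaving out the 4 fibres. Of the 6 adipocyte markers, 5 were at 0 in all C2KO fibres and 4 in all WT fibres. Their sum had a median of 0 CPM in both genotypes, and it reached 33.4 CPM in a C2KO fibre and 1.46 CPM in a WT fibre.

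The genomic start of 4 of the genes is shown because the covariation and the differences described further on involve them. The sequences are the 250 bases before the RefSeq start (build GRCm38.p6), written in the direction of the gene, and 9 of the 10 genes had an entry. Capitals mark matches, on either strand, to AGGTCA, the core letters bound by many nuclear receptors, or to GCATGCGC, the core of the NRF1 motif. Acadl (chr1:66863310-66863559, minus strand) is shown as the gene with the largest fold difference, Acadm (chr3:153944644-153944893, minus strand) and Etfdh (chr3:79628768-79629017, minus strand) as a closely covarying pair, and Hadhb (chr5:30155003-30155252, plus strand) because this window lies wholly between Hadha and Hadhb.
Acadl: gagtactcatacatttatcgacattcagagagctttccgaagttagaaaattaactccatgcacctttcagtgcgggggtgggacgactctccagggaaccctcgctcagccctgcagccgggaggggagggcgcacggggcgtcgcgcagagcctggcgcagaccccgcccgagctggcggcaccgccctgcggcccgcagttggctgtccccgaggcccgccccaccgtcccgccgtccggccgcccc
Acadm: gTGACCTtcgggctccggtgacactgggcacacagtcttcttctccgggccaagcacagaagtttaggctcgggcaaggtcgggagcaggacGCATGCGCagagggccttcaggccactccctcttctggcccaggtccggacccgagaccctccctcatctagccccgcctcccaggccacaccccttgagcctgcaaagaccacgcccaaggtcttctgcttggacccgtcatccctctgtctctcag
Etfdh: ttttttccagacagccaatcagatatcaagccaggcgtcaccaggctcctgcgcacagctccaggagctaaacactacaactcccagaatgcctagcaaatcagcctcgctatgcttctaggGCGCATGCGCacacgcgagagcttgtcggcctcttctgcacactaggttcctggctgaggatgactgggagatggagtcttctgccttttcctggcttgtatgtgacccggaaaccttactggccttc
Hadhb: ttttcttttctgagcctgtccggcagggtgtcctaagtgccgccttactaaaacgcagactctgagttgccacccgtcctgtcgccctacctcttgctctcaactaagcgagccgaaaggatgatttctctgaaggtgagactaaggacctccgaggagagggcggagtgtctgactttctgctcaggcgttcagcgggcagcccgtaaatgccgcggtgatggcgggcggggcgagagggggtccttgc

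Hadha and Hadhb are transcribed away from each other, and 272 bases separate their starts in the annotation used for counting. In the full 300-base RefSeq windows (250 before and 50 after the start), AGGTCA was found in 3 of the 9 genes (Acadm, Echs1 and Acadvl), against 16.3% of all 32851 windows. The longer AAGGTCA, which overlaps AGGTCA and is favoured by oestrogen-related receptors, was found in Acadm alone of the 9, against 4.72% of all windows. GCATGCGC was found in Acadm and Etfdh, against 2.71% of all windows. AGGTCANAGGTCA, the direct repeat bound by PPAR with RXR, was found in none of the 9 and in 0.0396% of all windows. These are matches of letters, chosen after the sequences had been seen, and say nothing of binding.

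Expressed per kilobase of exon, the TMM-scaled levels of the genes had 1 order in all 5 pools. Acadvl, the very long-chain dehydrogenase of the inner membrane, was the most abundant at 115 ± 8.01 CPM per kb in C2KO pools and 111 ± 6.59 CPM per kb in WT pools (SD, n = 2 and n = 3 pools, as throughout). Hadhb, the thiolase subunit, followed at 109 ± 2.49 in C2KO and 97.3 ± 9.60 in WT, and Acadm, the medium-chain dehydrogenase, at 92.1 ± 9.74 in C2KO and 83.9 ± 7.49 in WT. The ranges of these neighbours overlapped when pools were compared with each other, although each pool ranked them alike. Echs1 stood at 64.8 ± 8.31 in C2KO and 65.8 ± 3.88 in WT, Acadl, the long-chain dehydrogenase, at 57.3 ± 12.0 in C2KO and 43.3 ± 3.25 in WT, and Etfdh at 34.8 ± 2.77 in C2KO and 33.8 ± 2.91 in WT.

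Hadha, the hydratase and dehydrogenase subunit, was at 27.2 ± 0.533 CPM per kb in C2KO and 27.3 ± 2.05 in WT. Lower still were Cpt2, at 24.2 ± 1.92 in C2KO and 22.4 ± 1.39 in WT, and Slc25a20, at 19.7 ± 1.34 in C2KO and 15.9 ± 1.52 in WT. Pool ranges of Hadha and Cpt2 overlapped, as did those of Echs1 and Acadl, while those of Acadm and Echs1, of Acadl and Etfdh, of Etfdh and Hadha, and of Cpt2 and Slc25a20 did not.

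Cpt1b, the muscle isoform that commits long-chain fatty acids to the mitochondrion, could be read only in part. Of its 2894 exon bases (mm10 chromosome 15, 89416405 to 89425862), 2744 are shared on the same strand with the read-through gene ChkbCpt1b, and the counting left out read pairs assigned to more than 1 gene. Each fibre accordingly held 5 to 42 counts of Cpt1b, 898 in all, and ChkbCpt1b held 2 counts over all fibres. Over the 150 bases that remain, Cpt1b was at 12.0 ± 0.0713 CPM per kb in C2KO and 11.1 ± 2.57 in WT, and this number is not a measure of the whole transcript. Its spread between fibres was a coefficient of variation of 29.0%, against the 23.4% that counting error alone gives at this depth.

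None of the 10 genes was called higher or lower in C2KO by edgeR's quasi-likelihood test when both an adjusted p under 0.05 and more than a 1.5-fold difference were required. Across all 12863 tested genes 3 were called higher (0.0233%) and 3 lower (0.0233%). DESeq2 and limma-voom on the same pools called none of the 10 either. At an unadjusted p under 0.05 there were 2 of the 10, against 1328 of the 12863 tested. The fitted difference was positive for 8 genes and negative for 2, and the median log2 fold change was 0.11, against 0.00 over all tested genes. That median of the 10 was 0.032 without C2KO pool 2445, 0.071 without WT pool 1 and 0.18 without WT pool 2, and 0.32 with run as a covariate over fibres. Both C2KO pools lay above all 3 WT pools for 3 of the 10 genes (Slc25a20, Acadl and Hadhb), against 13.1% of all tested genes, and both lay below for none, against 14.5%. For Acadl this rested on 1 fibre of pool 740. Each CPM is a share of the fibre's counted RNA, so a change in 1 transcript cannot be told apart from an opposite change in the bulk of the others.

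**Figure D1:**
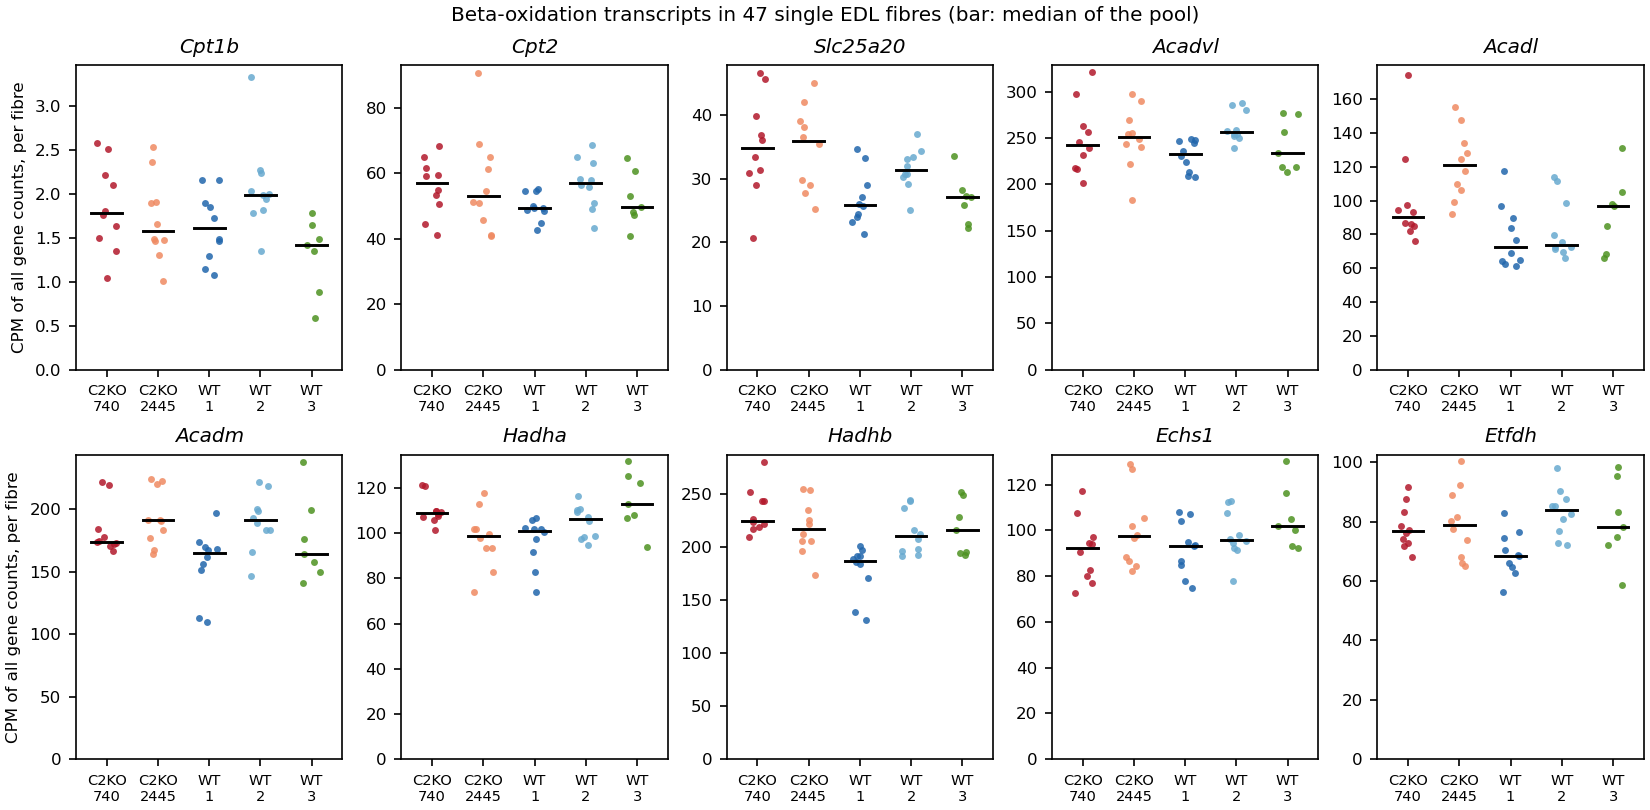
CPM of all gene counts of each gene (y axes) in each of 47 fibres, by pool (x axes), with a bar at the pool median. The pool medians of Acadl are 90.0 and 121 CPM in C2KO pools 740 and 2445 and 72.7, 74.0 and 96.6 CPM in WT pools 1, 2 and 3, so the median of C2KO pool 740 is below that of WT pool 3.

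**Figure D2:**
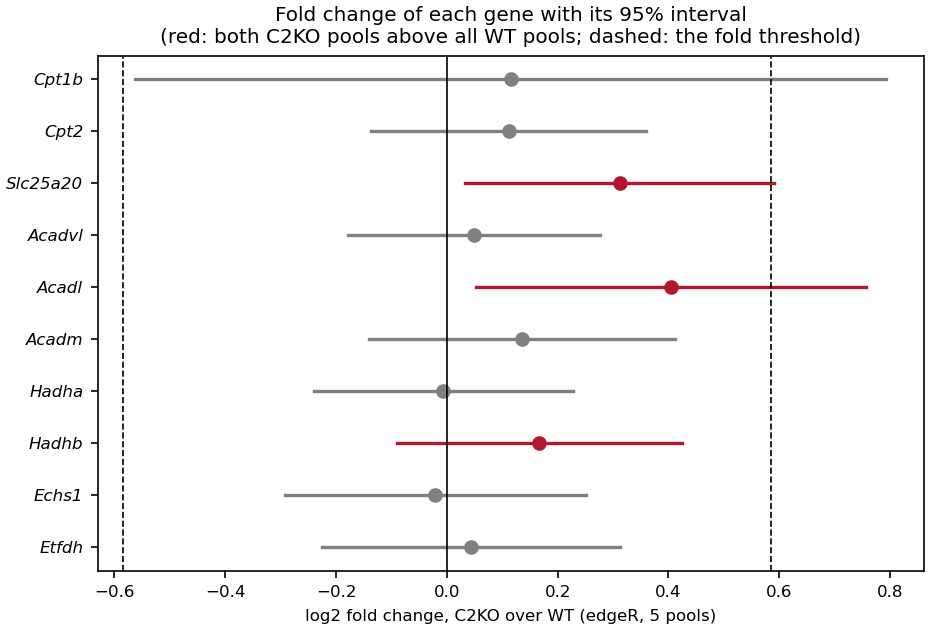
Log2 fold change of C2KO over WT (x axis) for each gene (y axis), from the 5 pools, with the 95% interval of the fit as a line and the fold threshold of 1.5 dashed. The intervals of Slc25a20 and Acadl lie above 0 and those of the other 8 genes span it.

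Among the genes of carnitine transport, Slc25a20 (chromosome 9, 108662098 to 108684641), the inner membrane carrier, had 33.5 and 36.9 CPM in the C2KO pools, against 27.1, 31.5 and 26.5 CPM in the WT pools. Both C2KO pools were above the highest WT pool. The log2 fold change was 0.31 (SE 0.12), a fold of 1.24 with a 95% interval of 1.02 to 1.51, and it did not pass the adjustment over all genes (edgeR p = 0.0334, adjusted p = 0.458). Single fibres overlapped, with a lowest, median and highest value of 20.7, 35.8 and 46.6 CPM in C2KO and of 21.4, 28.2 and 37.1 CPM in WT, although 17 of the 20 C2KO fibres exceeded the WT median and 7 exceeded every WT fibre. Cpt2 (chromosome 4, 107903982 to 107923589), which returns the acyl group to coenzyme A, had 53.7 and 60.1 CPM in C2KO pools and 50.2, 56.4 and 51.5 CPM in WT pools. These pools overlapped, and the 95% interval of its fold ran from 0.91 to 1.28 (adjusted p = 0.742). Cpt1b had 1.79 and 1.81 CPM in C2KO pools and 1.62, 2.06 and 1.29 CPM in WT pools. Its interval of 0.677 to 1.73 (adjusted p = 0.919) was the widest among the genes described here.

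Of the dehydrogenases that open each turn, Acadl (chromosome 1, 66830839 to 66863309) differed most. It had 95.0 and 128 CPM in the C2KO pools and 79.2, 82.2 and 91.4 CPM in the WT pools. Pool 740 was only slightly above the highest WT pool, and pool 2445 was well above it. In pool 740, 1 fibre stood apart at 174 CPM, with the next at 125 CPM. The fibre median of pool 740 was 90.0 CPM, below the 96.6 CPM of WT pool 3. With the scaling held fixed, the 1333 counts of the fibre at 174 CPM were enough to place pool 740 above WT pool 3. The fit was not repeated without that fibre alone. The log2 fold change was 0.40 (SE 0.15), a fold of 1.32 with a 95% interval of 1.04 to 1.69 (edgeR p = 0.0302, adjusted p = 0.457). Without C2KO pool 740 it was 0.61, and without pool 2445 it was 0.18, so most of the difference lay in 1 pool. Acadl ranged from 75.99 to 174 CPM (median 103) in C2KO fibres and from 61.1 to 131 CPM (median 76.5) in WT fibres. Thus 19 of the 20 C2KO fibres exceeded the WT median, and 13 of the 27 WT fibres lay below every C2KO fibre.

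Acadvl (chromosome 11, 70010183 to 70015428) had 239 and 264 CPM in C2KO pools and 232, 260 and 239 CPM in WT pools, which overlapped (fold 1.03, 95% interval 0.883 to 1.21, adjusted p = 0.892). Acadm (chromosome 3, 153922353 to 153944643) had 176 and 204 CPM in C2KO pools and 158, 189 and 173 CPM in WT pools, which also overlapped (fold 1.10, interval 0.907 to 1.33, adjusted p = 0.711). Summed per kilobase with Acads, the short-chain dehydrogenase, Acadl made up 19.2% and 22.2% of the 4 dehydrogenases in C2KO pools, against 17.6%, 16.2% and 18.8% in WT pools. Acadvl made up 43.1% and 40.8% in C2KO pools and 45.9%, 45.5% and 43.8% in WT pools. The share of Acadl was thus higher, and that of Acadvl lower, in both C2KO pools than in any WT pool, while that of Acadm was 33.1% to 35.1% over all 5 pools. For Acadl the margin of pool 740 over WT pool 3 was small (19.2% against 18.8%), and pool 740 includes the fibre that stood apart at 174 CPM. The shares were not recomputed without that fibre. Acads itself had 19.7 and 19.3 CPM in C2KO pools and 14.9, 15.7 and 17.5 CPM in WT pools, so that both C2KO pools were above all WT pools (log2 fold change 0.28, edgeR p = 0.0360, adjusted p = 0.458).

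**Figure D3:**
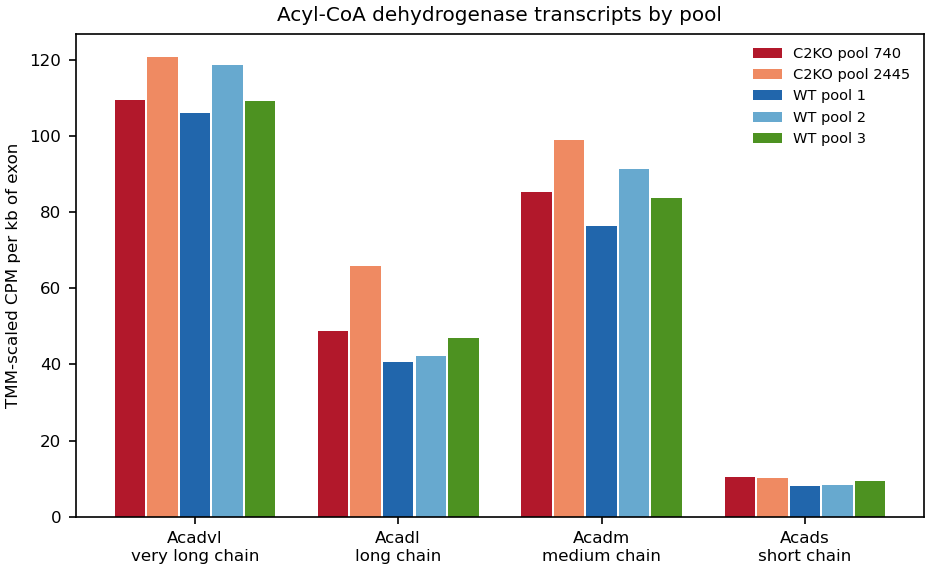
TMM-scaled CPM per kb of exon (y axis) of the acyl-CoA dehydrogenase genes by chain length (x axis), with 1 bar per pool. Acadl reaches 65.8 CPM per kb in C2KO pool 2445 and 40.7 to 46.9 in the WT pools, and Acads, the lowest, has 10.6 and 10.3 in the C2KO pools and 7.99, 8.39 and 9.36 in the WT pools.

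The trifunctional protein carries out the later steps on long chains. Its thiolase subunit Hadhb (chromosome 5, 30155253 to 30184593) had 223 and 230.2 CPM in C2KO pools and 179, 211 and 215 CPM in WT pools. Both C2KO pools were above every WT pool, but the fold of 1.12 had an interval of 0.939 to 1.34 (adjusted p = 0.620), and it is WT pool 1 that stood lowest. Its partner Hadha (chromosome 5, 30118304 to 30154980) had 106 and 103 CPM in C2KO pools and 97.3, 104 and 113 CPM in WT pools, with a fold of 0.996 and an interval of 0.847 to 1.17 (adjusted p = 0.990). The ratio of Hadha to Hadhb in CPM was 0.475 and 0.447 in C2KO pools, against 0.544, 0.493 and 0.525 in WT pools, so neither C2KO pool reached the lowest WT pool. In single fibres this ratio ran from 0.329 to 0.549 in C2KO and from 0.374 to 0.781 in WT.

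Echs1 (chromosome 7, 140105723 to 140116423), which hydrates short enoyl chains, had 87.9 and 105 CPM in C2KO pools and 93.0, 96.7 and 104 CPM in WT pools. The WT values fell between those of the C2KO pools (fold 0.986, interval 0.817 to 1.19, adjusted p = 0.969). Etfdh (chromosome 3, 79603788 to 79628767) had 74.9 and 83.8 CPM in C2KO pools and 69.6, 82.4 and 79.01 CPM in WT pools, again overlapping (fold 1.03, interval 0.856 to 1.24, adjusted p = 0.922). Apart from Cpt1b, Slc25a20 and Acadl, the upper bound of every gene's interval was under the fold threshold of 1.5, and the lowest lower bound was the 0.677 of Cpt1b.

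The run that held both genotypes gave a comparison of 1 C2KO fibre (of pool 740) with 7 WT fibres, which has no replicate on the C2KO side. This C2KO fibre was also the one that stood apart for Acadl in pool 740. The other runs of that pool had Acadl medians of 85.1 CPM (3 fibres) and 90.0 CPM (6 fibres). Acadl was at 174 CPM in the C2KO fibre (exact Clopper-Pearson 95% interval 165 to 184, counting error only) and at 66.1, 96.6 and 131 CPM as the lowest, median and highest of the WT fibres. Slc25a20 was at 45.8 CPM (interval 41.1 to 50.8) in the C2KO fibre and at 22.3, 27.1 and 33.6 CPM in the WT fibres. The C2KO fibre exceeded all 7 WT fibres for Slc25a20, Acadvl, Acadl and Hadhb, 6 of 7 for Cpt2 and Acadm, 5 of 7 for Echs1 and Etfdh, 4 of 7 for Hadha and 2 of 7 for Cpt1b. An edgeR fit over the 47 fibres with run as a covariate rests on this run for genotype, and so on this 1 C2KO fibre. It took fibres as independent. It gave log2 fold changes of 0.96 (SE 0.29, adjusted p = 0.115) for Acadl and 0.83 (SE 0.23, adjusted p = 0.0924) for Slc25a20, both more than 1.5 times those from the pools.

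With fibres taken as independent replicates, limma-voom over the 47 fibres gave adjusted p-values of 0.00111 for Acadl (log2 fold change 0.42), 0.00456 for Slc25a20 (0.28) and 0.00945 for Hadhb (0.19), none of which reached a fold of 1.5. Those p-values ignore that fibres share mice and runs. Without the 4 C2KO fibres high in fibroblast and endothelial markers, the pool fit gave 0.44 for Acadl, 0.35 for Slc25a20 and 0.22 for Hadhb, each at least as large as with them. Summed over the 10 genes, the pools held 1091 and 1218 CPM in C2KO and 987, 1115 and 1094 CPM in WT, a ratio of means of 1.08. Set against the 20 genes of the citrate cycle, respiratory chain and other mitochondrial functions used as a mitochondrial yardstick, the sum was 6.61% and 7.38% of theirs in C2KO pools and 6.34%, 6.77% and 6.44% in WT pools. C2KO pool 740 lay within the WT range of that ratio and pool 2445 above it.

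Within each genotype the spread between fibres exceeded counting error in every gene. For Cpt1b the excess was small in C2KO (26.8% against 24.2%) and larger in WT (31.1% against 22.9%). The coefficient of variation was 24.3% in C2KO fibres and 23.2% in WT fibres for Acadl (counting error 3.07% and 3.26%). It was 20.2% in C2KO and 15.1% in WT for Slc25a20, 21.3% in C2KO and 13.5% in WT for Cpt2, and 11.3% in C2KO and 17.2% in WT for Acadm. The lowest was that of Hadhb in C2KO fibres (10.6%, against 14.4% in WT) and that of Acadvl in WT fibres (9.64%, against 13.7% in C2KO). Cpt2 had its widest spread in C2KO pool 2445, from 40.9 to 90.6 CPM (26.5%), and its narrowest in WT pool 1, from 42.7 to 55.1 CPM (8.17%).

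Many of these genes covaried from fibre to fibre. After the pool mean of log2(CPM + 1) was subtracted, Spearman's rho over the 47 fibres had a median of 0.50 over the 36 pairs that leave out Cpt1b, with a lowest value of -0.06 and a highest of 0.73, and 18 pairs were above 0.5. The median was 0.48 in the 20 C2KO fibres and 0.53 in the 27 WT fibres. Acadm was the most central gene, with a median rho of 0.69 with the other 8, including 0.73 with both Hadhb and Etfdh and 0.71 with Acadl. Hadha was the least, with a median of 0.30, and its rho with Hadhb, with which it shares a start region, was only 0.35. Slc25a20 and Hadha had a rho of -0.06. Cpt1b, whose counts are few, had a median of 0.10. These correlations describe fibres that share mice, runs and libraries and carry no p.

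**Figure D4:**
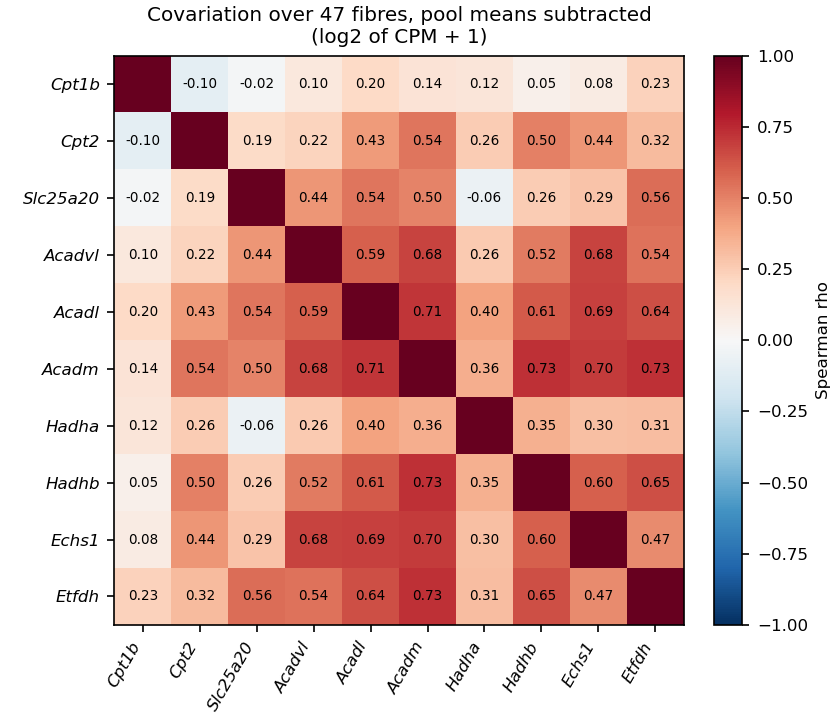
Spearman's rho between each pair of genes (rows and columns, colour from -1 to 1) over 47 fibres, from log2(CPM + 1) with pool means subtracted. Acadm has its highest values, 0.73, with Hadhb and Etfdh, while Cpt1b runs from -0.10 to 0.23 and Slc25a20 with Hadha is at -0.06.

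Averaged over the 10 genes, the fibre-to-fibre pattern was most like that of the ATP synthase subunits. Of the 6044 other genes of at least 10 CPM, the 5 with the highest rho were Atp5b (0.85), Atp5a1 (0.84), Coq9 (0.81), the complex I subunit Ndufa10 (0.80) and the oxoglutarate carrier Slc25a11 (0.80), against a median of 0.09 over those genes. Each of the 5 had a rho of at least 0.75 in the C2KO fibres and 0.76 in the WT fibres taken alone. The levels of Atp5b were 3374 ± 39.7 CPM in C2KO pools and 3352 ± 34.7 CPM in WT pools (log2 fold change 0.01, adjusted p = 0.981). The mean of the 20 yardstick genes, which include Atp5b and Atp5a1, had a rho of 0.82 with the mean of the 10. The same mean had a rho of 0.59 with Mb, the oxygen-binding protein myoglobin, 0.28 with the type IIx myosin Myh1 and -0.31 with the type IIa myosin Myh2, and -0.03 with depth and -0.15 with the summed fibroblast and endothelial markers.

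Around the 10 genes, 87 others were listed in 7 groups by role, and 85 entered the test. None was called in C2KO pools in either direction by edgeR. At an unadjusted p under 0.05 there were 12 of the 85, against 1328 of the 12863 tested. Of the 85, 15 had both C2KO pools above and 12 had both below all WT pools, against 13.1% and 14.5% of all tested genes. Their median log2 fold change was 0.02.

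In the group that activates fatty acids and moves them as carnitine esters, 0 of 13 were called (7 positive and 6 negative, median 0.10). Crat, the carnitine acetyltransferase that buffers acetyl-CoA, had 508 and 535 CPM in C2KO pools, against 625, 652 and 616 CPM in WT pools (log2 fold change -0.28, SE 0.08, adjusted p = 0.413). Both C2KO pools were below all WT pools. Acot13, an acyl-CoA thioesterase, had 88.6 ± 5.70 CPM in C2KO and 82.6 ± 5.01 CPM in WT (adjusted p = 0.757). Acot2, a mitochondrial thioesterase named after its values were seen, was low at 2.92 ± 0.205 CPM in C2KO and 1.55 ± 0.300 CPM in WT (log2 fold change 0.92, adjusted p = 0.413 by edgeR). DESeq2 on the pools gave it an adjusted p of 0.0480 and called it.

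Malonyl-CoA, made by acetyl-CoA carboxylase and limited by AMP-activated protein kinase, inhibits the entry step at the carnitine acyltransferase. In this group 0 of 10 were called (6 positive and 4 negative, median 0.11). Prkab2 and Prkag3, the most abundant kinase subunits per kilobase, had 518 ± 40.4 and 238 ± 60.6 CPM in C2KO, against 493 ± 36.4 and 284 ± 41.4 CPM in WT (adjusted p = 0.840 and 0.668 by edgeR). Acacb, the mitochondrial carboxylase, was chosen after its values were seen. It had 53.8 and 49.7 CPM in C2KO pools and 71.3, 73.2 and 68.7 CPM in WT pools, a log2 fold change of -0.46 (SE 0.09, edgeR p = 0.00199, adjusted p = 0.355). Prkag2, another kinase subunit chosen the same way, had 13.2 and 9.50 CPM in C2KO pools and 6.65, 4.05 and 5.63 CPM in WT pools (log2 fold change 1.06, adjusted p = 0.395 by edgeR and 0.0136 by DESeq2, which called it).

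Among the other enzymes of the matrix spiral 0 of 12 were called (7 positive and 5 negative, median 0.01). Hadh, the short-chain hydroxyacyl-CoA dehydrogenase, had 131 ± 2.71 CPM in C2KO and 121 ± 2.64 CPM in WT (adjusted p = 0.668 by edgeR), and Hsd17b10, which acts on branched chains, had 77.3 ± 4.35 CPM in C2KO and 79.8 ± 4.46 CPM in WT (adjusted p = 0.902). In electron transfer 0 of 4 were called. Its flavoprotein subunits, which feed Etfdh, were at 155 ± 0.993 CPM for Etfa in C2KO and 143 ± 13.0 CPM in WT, and at 159 ± 12.0 CPM for Etfb in C2KO and 168 ± 11.1 CPM in WT (adjusted p = 0.726 and 0.804 by edgeR). Of the 11 peroxisomal genes 0 were called (median 0.14), with the lipid carrier gene Scp2 at 123 ± 14.6 CPM in C2KO and 124 ± 5.52 CPM in WT.

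Of 17 regulators of these genes 15 were tested and 0 called (4 positive and 11 negative, median -0.03). Ppargc1a, the coactivator of mitochondrial genes, was at 51.8 ± 2.54 CPM in C2KO and 50.9 ± 1.28 CPM in WT, and Esrra, the receptor it coactivates, at 33.0 ± 3.05 CPM in C2KO and 31.0 ± 4.93 CPM in WT. Both were named after their values were seen. Lpin1 and Rxrg, the 2 most abundant per kilobase, were at 366 ± 1.12 and 99.0 ± 9.90 CPM in C2KO and at 370 ± 6.65 and 105 ± 13.6 CPM in WT (adjusted p = 0.965 and 0.858 by edgeR). Of the 20 yardstick genes 0 were called (15 positive and 5 negative, median 0.05). Cox5a, a cytochrome c oxidase subunit, had 744 and 744 CPM in C2KO pools and 560, 543 and 667 CPM in WT pools (log2 fold change 0.34, adjusted p = 0.441).

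**Figure D5:**
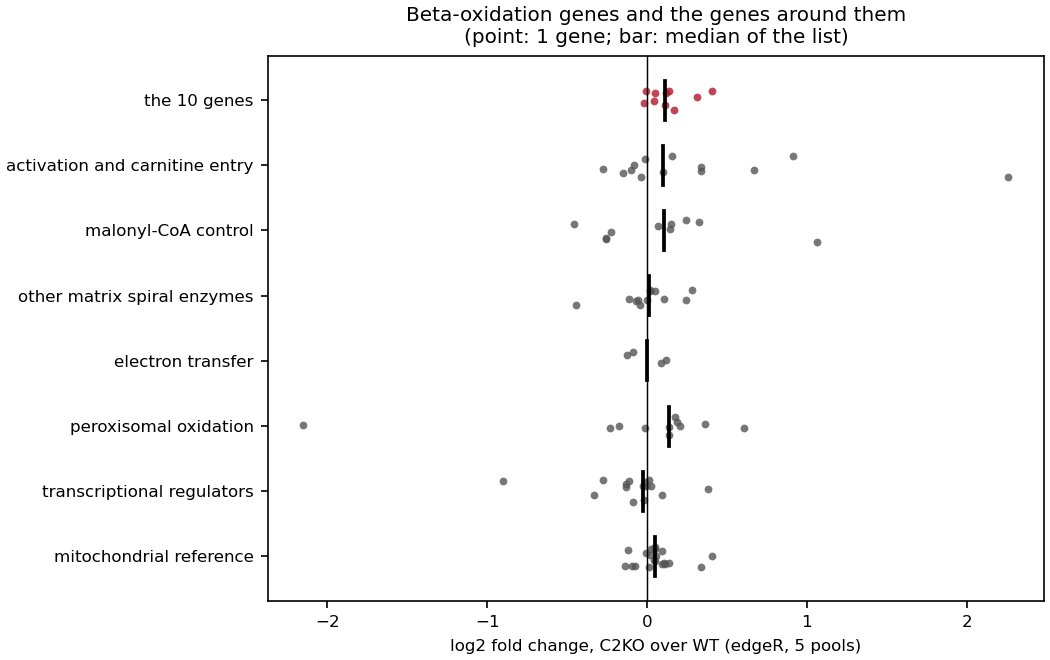
Log2 fold change of C2KO over WT (x axis) of each tested gene, for the 10 genes and the 7 groups around them (y axis), with a bar at each median. The 10 genes run from -0.02 to 0.40 around a median of 0.11, and the group medians run from -0.03 to 0.14.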

How the data were processed

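The authors deposited raw counts per gene for each of the 47 fibres, in whole numbers. Per the file headers, read pairs were counted over exons of mm10 genes with featureCounts 1.5.2 (strand option 2). Multi-mapping pairs and pairs of more than 1 gene were left out by default. Alignment with HISAT2 2.0.5 is named in the submitters' processing notes. No source used here says whether the kit preserved strand, and 77 exon bases of Hadha lie opposite Gareml, which held 21 counts.

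Summed counts of 5 pools (56728734 to 131488364 counts in tested genes) entered edgeR 4.0.16 under R 4.3.3 (TMM, filterByExpr, quasi-likelihood, Benjamini-Hochberg over 12863 genes, checked on simulated data), with calls at adjusted p under 0.05 combined with more than 1.5-fold. Alternatives used DESeq2 1.42.0 and limma 3.58.1. Pool values are TMM-scaled CPM and fibre values CPM of all gene counts. No 2 fibres agreed within counting error (lowest chi-square per degree of freedom 8.40 over 1081 pairs).

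The 10 genes and all lists were chosen with earlier results of these data known. Named genes were the 10, Mybpc2, the called or else the 2 most abundant genes per kilobase of each list, and the 5 genes of at least 10 CPM most like the mean of the 10. The values of 1 gene that this rule takes are not reported here.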

Additional observations from a re-analysis of the deposited data

Results flagged for a closer look

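Each gene was checked in each pool for a fibre that stood apart, 50 checks in all, of which chance alone flags about 1 in 20. Acadl in C2KO pool 740 had a fibre at 174 CPM, with the next at 125 CPM, and this was the only C2KO fibre of the run shared with WT fibres. Cpt1b in WT pool 2 had a fibre at 3.33 CPM, with the next at 2.27 CPM, on a gene of at most 42 counts per fibre.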

How the results depend on the processing

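No paired analysis was possible because the fibre numbers follow the order of deposition and tie no C2KO fibre to a WT fibre. None of the 10 genes was called under any of the 15 alternatives. These changed the scaling, the tool, the filter, the threshold, the pools and runs entered and the unit of replication. Of the 150 fold changes, 135 kept their sign. That tally includes the alternative without the fold threshold, which reuses the pool fit, so its 10 fold changes could not change sign. Log2 fold changes of Cpt2, Slc25a20, Acadl, Acadm and Hadhb stayed positive throughout. The sign of Hadha turned with RLE size factors (0.0019), DESeq2 (0.0022), run as a covariate (0.13), limma-voom over fibres (0.015) and without the marker-high fibres (0.028), and leaving out 1 pool gave -0.061 to 0.051. With run as a covariate Cpt1b was at -0.26 and Echs1 at 0.081. Leaving out 1 pool gave -0.032 to 0.30 for Cpt1b, -0.018 to 0.12 for Acadvl, -0.15 to 0.11 for Echs1 and -0.034 to 0.12 for Etfdh. The ratio of the 10 genes to the yardstick genes was 1.07 in C2KO over WT, and 1.01 to 1.13 with 1 pool left out. Of the 85 listed genes around them, 0 were called in the pool fit, 2 by DESeq2 (Acot2 and Prkag2) and 3 by limma-voom over fibres (these and Ppard). Calls over all genes numbered 133 higher and 64 lower with DESeq2, 318 and 40 without C2KO pool 2445, and 246 and 228 with limma-voom over fibres. The fold threshold bars any fold under 1.5 from a call, but dropping it from the pool fit also gave none. The cause of these changes was not tested. Correlations for C2KO and WT fibres apart and without subtraction of pool means (0.47) were added after seeing the data. Cpt1b is limited to the reads that fall outside its read-through neighbour.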

Other observations

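The fibres were also described by their sex-linked counts, a split made after seeing the data that is not one of the study's groups. All 10 fibres of C2KO pool 740 had counts of Y-linked genes and all 10 of pool 2445 had Xist, so in C2KO this split and the pool cannot be told apart, while each WT pool held both kinds. The split leaves out 1 fibre of WT pool 1, which fell in neither kind. Among fibres with Xist, Acadl was at 92.2 to 155 CPM (median 121) in 10 C2KO fibres and at 61.1 to 118 CPM (median 72.3) in 11 WT fibres. Among fibres with Y-linked counts it was at 75.99 to 174 CPM (median 90.0) in 10 C2KO fibres and at 64.1 to 131 CPM (median 85.1) in 15 WT fibres. The medians of Slc25a20 were 36.0 CPM in C2KO and 27.2 CPM in WT fibres with Xist, and 34.8 CPM in C2KO and 29.1 CPM in WT fibres with Y-linked counts. The difference between the kinds was not tested.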
